A study of Mus musculus with 6 samples.

Results

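The 10 genes described here encode the glucose transporter GLUT1 (*Slc2a1*) and enzymes that turn glucose into lactate: the hexokinases *Hk1* and *Hk2*, the phosphofructokinase *Pfkm*, the aldolases *Aldoa* and *Aldoc*, the phosphoglycerate kinase *Pgk1*, the pyruvate kinase *Pkm*, and the lactate dehydrogenase subunits *Ldha* and *Ldhb*. They were looked up by gene symbol, from a list chosen with earlier results of these data known. All 10 were found among the 21744 genes of the expression table, and each symbol occurred there once. *Hk2*, *Pkm* and *Ldha* were set apart as the photoreceptor-enriched forms and the other 7 genes as the rest, although for *Pkm* the table cannot separate the enriched splice form from the other.

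The samples were retinas taken at postnatal day 7 (P7) from 3 control mice and 3 *Lhx4* null mice of a mixed C57BL/6J and 129S6 background, with 1 RNA sequencing library per mouse. LHX4 is a LIM-homeodomain transcription factor of retinal bipolar cells. In the study the *Lhx4* null mice carried a tdTomato knock-in allele and a loxP allele of *Lhx4* together with *Six3-Cre*, which drives recombination in the developing retina, and the labels give the other animals only as control. The labels themselves read *Lhx4* mutant. The study's term *Lhx4* null stands for it here, also where a null label is named. The comparison asked which transcripts differ when *Lhx4* is inactivated, at an age when bipolar cells are being formed.

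Retinal tissue makes much of its energy and building material by glycolysis that ends in lactate although oxygen is present. Photoreceptors are the main site of this aerobic glycolysis, and they are known for the hexokinase HK2, the PKM2 form of pyruvate kinase and the lactate dehydrogenase A subunit, where many other neurons use HK1, PKM1 and lactate dehydrogenase B. Müller glia and photoreceptors take up glucose through GLUT1, and lactate leaves cells through the monocarboxylate transporters.

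Levels are FPKM, fragment counts scaled to transcript length and library size, as the authors' pipeline gave them per gene. A gene-level value does not separate splice forms, so the PKM1 and PKM2 messages of *Pkm* were read as 1 sum. Differences are log2 fold changes, libraries labelled *Lhx4* null minus control, on log2(FPKM + 0.1), with the standard error (SE) and p-value of limma and with p-values adjusted by Benjamini-Hochberg over 15200 genes whose mean reached 0.1 FPKM. All 10 genes passed that filter. An adjusted p under 0.05 was the threshold, and an unadjusted p under 0.05 and the absence of overlap between the 3 control and the 3 other values are given as descriptions.

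The control retinas held *Lhx4* itself at 20.9, 23.8 and 19.1 FPKM, and the retinas labelled *Lhx4* null held it at 31.2, 30.3 and 29.0 FPKM. It was thus higher, not lower, under the null label (log2 fold change 0.51 ± 0.09 SE, limma adjusted p = 0.0978), and the per-gene value does not show which exons were read. Bipolar cell markers other than *Lhx4* differed in the other direction: 12 of 13 were lower, and their summed level was 545 to 721 FPKM in controls and 343 to 383 FPKM in null-labelled retinas. Summed rod markers overlapped (5698 to 6641 against 4650 to 6194 FPKM, 12 of 14 lower), whereas summed cone markers (713 to 853 against 918 to 1039 FPKM, 7 of 10 higher), Müller glia markers (856 to 934 against 985 to 1029 FPKM, 8 of 10 higher) and pigment epithelium markers (20.9 to 42.7 against 45.8 to 80.6 FPKM, 7 of 8 higher) lay above the controls. So did the low sum of muscle and fibroblast markers (2.37 to 3.12 against 5.30 to 5.78 FPKM), in which *Col1a2* passed the threshold, while 9 of 10 amacrine and 8 of 8 progenitor and cell cycle markers were higher with overlapping sums. General photoreceptor markers, listed apart from those of rods and cones, overlapped in sum (1125 to 1258 against 1186 to 1216 FPKM, 4 of 6 higher). The cone list was split: without overlap, 4 genes were higher and 2 lower. The lower ones were *Arr3* (log2 fold change -1.27) and *Opn1mw* (-1.77), and *Opn1sw* (0.88) was higher and passed the threshold. No marker of the bipolar, rod, cone, Müller glia and pigment epithelium lists was at 0 in every library, although *Aqp4* of Müller glia and *Lrat* and *Best1* of the pigment epithelium stayed under 1 FPKM. The part of these marker shifts in the results was not tested, and in bulk tissue fewer cells of a type cannot be told apart from less RNA per cell. From the steps between low FPKM values, the libraries labelled null held 46.7 to 65.9% of the reads of the deepest library and the controls 76.8 to 100%, so depth moved with the groups. A division of the libraries into control 1, control 3 and null 3 on one side and control 2, null 1 and null 2 on the other, taken from earlier work on these data, cuts across the groups and was tried as a term. Because the division came from the same data, p-values of a fit that holds it are descriptions only. The labels do not name it, and these libraries bear it out only in part: the deviations from the group means correlated across genes at 0.236 for control 2 and null 1, at 0.122 and 0.162 for null 3 with control 1 and control 3, but at -0.000198 for control 2 and null 2.

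The 10 genes lie on 8 chromosomes, with *Ldha* and *Aldoa* far apart on chromosome 7 and *Hk2* and *Ldhb* on chromosome 6. In GENCODE vM21 (GRCm38), *Slc2a1* spans chr4:119108711-119137983 and *Pfkm* chr15:98092589-98132451, both on the plus strand. The hexokinase genes are both on the minus strand, *Hk1* at chr10:62268855-62379908 and *Hk2* at chr6:82725025-82774454. *Aldoa* is at chr7:126795234-126800751 on the minus strand and *Aldoc* at chr11:78322968-78327781 on the plus strand. *Pgk1* (chrX:106187100-106203699) and *Pkm* (chr9:59656368-59679375) are on the plus strand, as is *Ldha* (chr7:46841475-46855627), and *Ldhb* (chr6:142490249-142507957) is on the minus strand.

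Many glycolytic genes are known targets of HIF-1 and of E-box factors, which bind near transcription starts, so promoter sequences are shown for *Hk2* and *Pgk1*, the members with the lowest p, for *Ldha*, the member with the most matches, and for *Hk1*, the paralog of *Hk2*, with no match. The letters ACGTG and GCGTG, cores of the hypoxia response element, were searched on both strands, and matches are in capitals. The window was the 250 bases before 1 RefSeq start (GRCm38.p6) per gene, the start nearest the beginning of the gene in GENCODE. ACGTG is also part of the E-box CACGTG. The windows are chr6:82774455-82774704, minus strand, for *Hk2*; chrX:106186850-106187099, plus strand, for *Pgk1*; chr7:46845554-46845803, plus strand, for *Ldha*; and chr10:62379909-62380158, minus strand, for *Hk1*.
Hk2: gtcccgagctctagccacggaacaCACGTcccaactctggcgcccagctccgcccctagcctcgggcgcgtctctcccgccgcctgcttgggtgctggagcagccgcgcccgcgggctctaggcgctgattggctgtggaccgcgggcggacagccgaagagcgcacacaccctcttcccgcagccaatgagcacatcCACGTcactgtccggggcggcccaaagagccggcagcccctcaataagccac
Pgk1: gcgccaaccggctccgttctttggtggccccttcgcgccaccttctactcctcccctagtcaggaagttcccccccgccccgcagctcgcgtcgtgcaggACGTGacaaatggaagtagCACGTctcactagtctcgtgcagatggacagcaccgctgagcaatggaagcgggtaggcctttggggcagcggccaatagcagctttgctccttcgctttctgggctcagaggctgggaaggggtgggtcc
Ldha: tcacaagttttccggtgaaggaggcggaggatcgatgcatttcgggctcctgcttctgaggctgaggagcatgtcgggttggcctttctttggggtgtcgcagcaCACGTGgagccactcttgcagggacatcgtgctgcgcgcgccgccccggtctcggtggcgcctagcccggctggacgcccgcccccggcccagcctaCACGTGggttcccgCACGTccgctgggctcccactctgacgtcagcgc
Hk1: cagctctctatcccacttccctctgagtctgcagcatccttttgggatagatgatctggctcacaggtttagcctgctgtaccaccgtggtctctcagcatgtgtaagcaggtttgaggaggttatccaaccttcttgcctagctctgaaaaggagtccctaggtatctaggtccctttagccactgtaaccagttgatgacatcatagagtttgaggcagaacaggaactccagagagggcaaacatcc
The *Hk2* and *Pgk1* windows each held 2 separate matches and the *Ldha* window 3, with CACGTG among them, while the *Hk1* window held none. None of these windows overlaps a GENCODE exon, and that of *Ldha* lies between exons inside the span of the gene, which has an earlier start as well. Over the 32851 RefSeq promoters searched the same way, 38.6% held at least 1 match, 13.4% at least 2 separate matches, 4.56% at least 3, and 6.02% held CACGTG. Matches were not limited to members that were lower. The 2 that were higher under the null label held them too: *Slc2a1* (log2 fold change 0.07) had 2 separate matches and *Pfkm* (0.03) had CACGTG. Among the 10 genes, 7 held a match, and *Hk1*, *Aldoa* and *Pkm* did not, although *Aldoa* and *Pkm* were lower without overlap. Those without a match have 2, 3 and 2 RefSeq starts, of which 1 each was used here. GENCODE exons cover 77.2% of the *Aldoa* window and 83.2% of the *Pkm* window. The matches are of letters in 1 window per gene and are no measure of binding.

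The levels of the 10 genes spanned a 236-fold range of mean FPKM over the 6 libraries, which is a scale per transcript length. *Ldha* (760.0 FPKM), *Pkm* (624 FPKM) and *Aldoa* (521 FPKM) led, followed by *Pgk1* (155 FPKM), *Hk1* (96.0 FPKM), *Slc2a1* (80.5 FPKM), *Ldhb* (71.4 FPKM), *Aldoc* (46.5 FPKM) and *Pfkm* (26.2 FPKM), and *Hk2* was lowest at 3.22 FPKM. Of the 9 neighbouring pairs in that order, 3 overlapped over the libraries: *Pkm* and *Aldoa*, *Hk1* and *Slc2a1*, and *Slc2a1* and *Ldhb*. Of the photoreceptor-enriched forms, *Ldha* and *Pkm* were thus the most abundant members and *Hk2* the least.

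**Figure D1:**
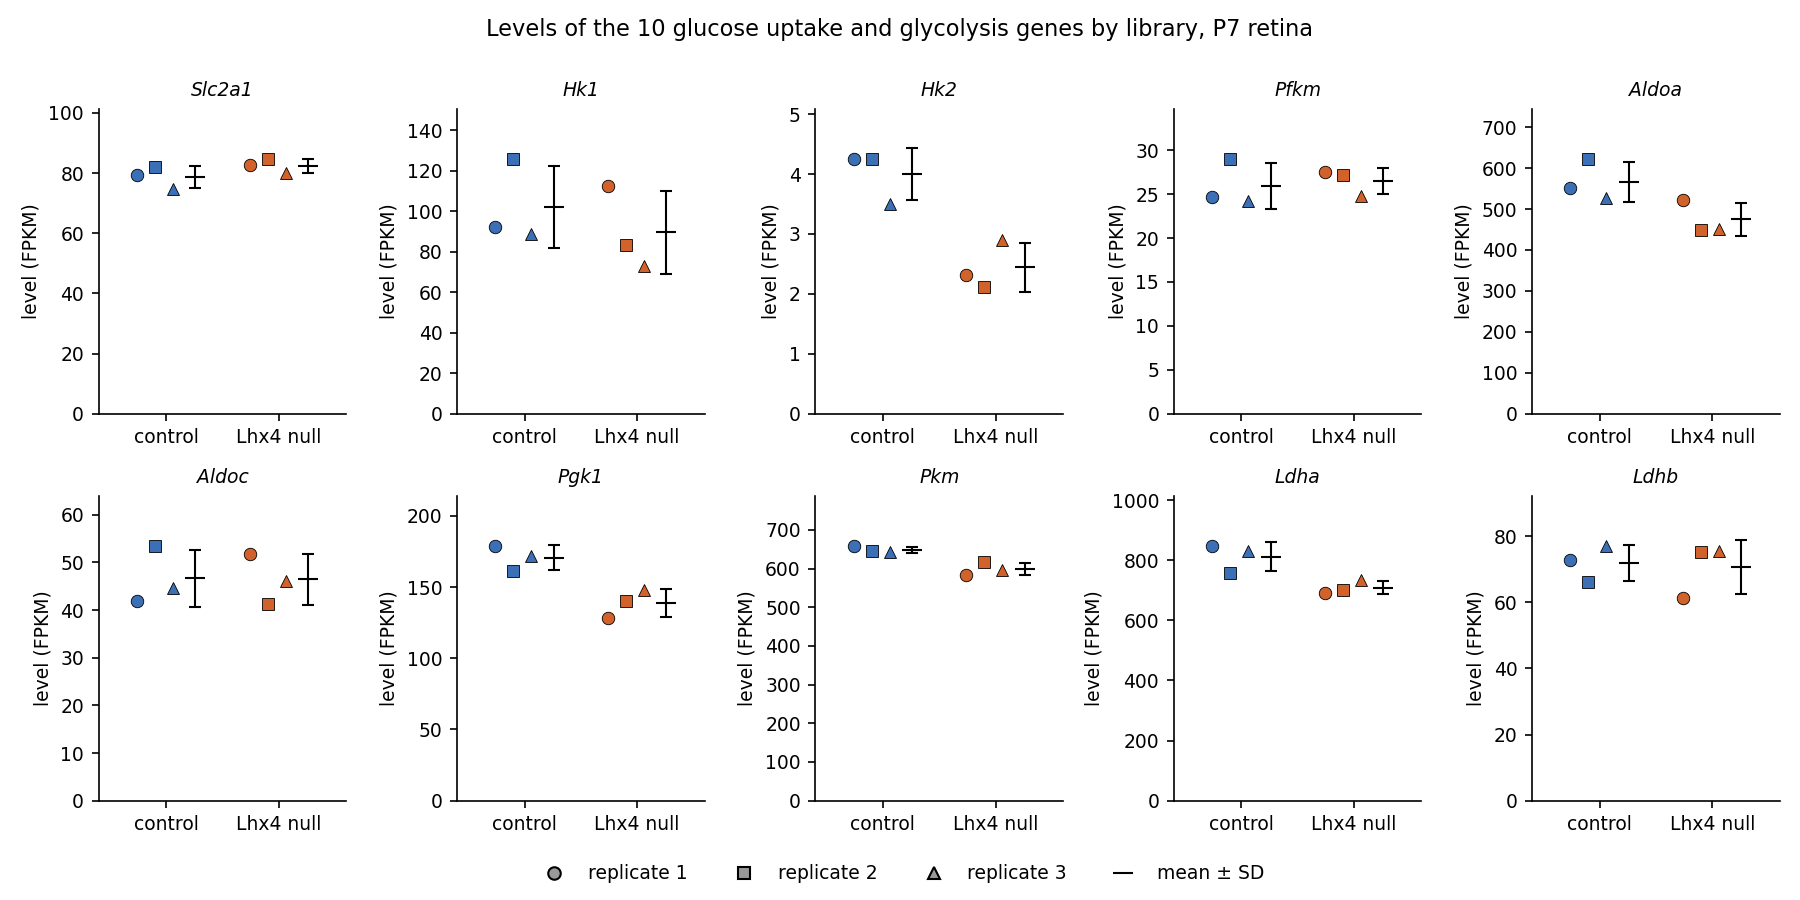
Level of each of the 10 genes in FPKM (vertical axes from 0) in the 3 control and 3 *Lhx4* null libraries, with points for single libraries and bars for mean ± SD. *Hk2*, *Aldoa*, *Pgk1*, *Pkm* and *Ldha* have every point of the null label below every control point, and the groups overlap for the other 5 genes.

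No member passed the threshold, where 0.224% of all tested genes (34 of 15200) did. At an unadjusted p under 0.05, 3 of the 10 genes were called against 8.15% of all genes, and all 3 (*Hk2*, *Pgk1* and *Aldoa*) were lower, where 3.55% of all genes were called lower and 4.6% higher. Control and null values did not overlap for 5 of 10 genes (*Hk2*, *Aldoa*, *Pgk1*, *Pkm* and *Ldha*), each lower, against 14.2% of all genes in either direction and 6.13% in the lower one. The median log2 fold change of the members was -0.16, with 8 lower and 2 higher, against 0.01 over all genes tested. Their FPKM summed to 2527 ± 34.0 (SD, n = 3) in controls and to 2239 ± 22.3 (SD, n = 3) under the null label, 88.6% of the control sum, most of which came from *Ldha*, *Pkm* and *Aldoa*.

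Glucose uptake was represented by *Slc2a1*, which was read at 79.3, 82.1 and 74.7 FPKM in controls and at 82.6, 84.6 and 80.0 FPKM in null-labelled retinas. The groups overlapped, with a log2 fold change of 0.07 (95% interval -0.09 to 0.22, limma adjusted p = 0.811), which is the narrowest interval among the 10 genes. *Slc2a3*, which encodes the neuronal transporter GLUT3, was at 11.8, 13.8 and 12.6 FPKM in controls and at 11.4, 9.34 and 9.46 FPKM under the null label. Its groups did not overlap, and the difference of -0.34 ± 0.10 SE had an unadjusted p of 0.0114 and a limma adjusted p of 0.473. Of the 12 hexose transporters tested, 0 passed the threshold, and at an unadjusted p under 0.05 the other call was *Slc2a9*, a urate and hexose transporter of low level, at 0.251, 0.211 and 0.144 FPKM in controls and 0.714, 0.358 and 0.490 FPKM under the null label (log2 fold change 1.01 ± 0.28 SE, limma adjusted p = 0.391). At so low a level the size depends on the pseudocount: it was 0.33 with 1 FPKM and 1.36 as a ratio of group means. In all, 2 of the 12 hexose transporters were at an unadjusted p under 0.05, as were 8.15% of all genes.

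Hexokinases trap glucose in the cell by phosphorylation. *Hk2* differed most of the 10 genes: it was at 4.25, 4.24 and 3.50 FPKM in controls and at 2.31, 2.12 and 2.90 FPKM in null-labelled retinas. Every null value lay below every control value, and the null mean was 61.2% of the control mean. On the log2 scale the difference was -0.69 ± 0.15 SE (95% interval -1.04 to -0.35), with an unadjusted p of 0.0016 and a limma adjusted p of 0.206. *Hk1*, the general neuronal form, stood at 92.5, 126 and 88.9 FPKM in controls and at 113, 83.6 and 73.0 FPKM under the null label. Control 2 and null 1 were the highest libraries of their groups, the groups overlapped, and the difference of -0.20 ± 0.18 SE had the widest interval of the 10 genes (-0.61 to 0.21). With the division of the libraries as a term in the fit, *Hk1* was lower by -0.34 with an unadjusted limma p of 0.0183, which did not pass the threshold after adjustment, whereas it was -0.04 without control 2, -0.06 without null 3 and -0.37 without null 1. *Hkdc1*, a hexokinase-domain protein, was higher under the null label, at 22.2, 33.0 and 26.9 FPKM against 21.6, 18.8 and 21.7 FPKM (log2 fold change 0.38 ± 0.14 SE, limma adjusted p = 0.55). Without null 2 the *Hkdc1* difference was 0.24, and its unadjusted limma p was 0.0718 there, 0.0769 without control 2 and 0.0505 without null 3.

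Phosphofructokinase catalyses the committed step, and its subunits come from 3 genes. *Pfkm*, the muscle form, was at 24.6, 29.0 and 24.3 FPKM in controls and at 27.5, 27.1 and 24.8 FPKM under the null label, with overlapping groups and a difference of 0.03 (95% interval -0.17 to 0.24, limma adjusted p = 0.951). *Pfkp*, the platelet form, was the most abundant of the 3 and did not overlap, at 144, 126 and 129 FPKM in controls and 90.7, 97.5 and 114 FPKM under the null label. Its difference was -0.41 ± 0.10 SE, with an unadjusted p of 0.00307 and a limma adjusted p of 0.286. *Pfkl*, the liver form, overlapped, at 65.3, 77.8 and 57.1 FPKM against 62.8, 53.2 and 53.2 FPKM (log2 fold change -0.24 ± 0.12 SE, limma adjusted p = 0.666). Part of the exon sequence of *Pfkm* (10.7%) and of *Pfkp* (5.58%) is shared with overlapping genes, and the counting of strand is not given in the sources used here.

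Aldolase splits the 6-carbon sugar into 2 triose phosphates. *Aldoa*, the widespread form, was at 552, 621 and 528 FPKM in controls and at 522, 449.5 and 452 FPKM in null-labelled retinas. The groups were separated only by the gap between control 3 and null 1, and the difference was -0.26 ± 0.10 SE with an unadjusted p of 0.0357 and a limma adjusted p of 0.592. *Aldoc*, the form of brain and glia, stood at 41.9, 53.4 and 44.7 FPKM against 51.9, 41.3 and 46.1 FPKM with overlap and a log2 fold change of -0.01 (95% interval -0.27 to 0.26, limma adjusted p = 0.994). *Tpi1*, which interconverts the trioses that aldolase makes, was at 258, 253 and 258 FPKM in controls and at 189.9, 196 and 206 FPKM under the null label. Of the 25 tested glycolysis genes it had the lowest p, with a difference of -0.38 ± 0.07 SE and a limma adjusted p of 0.107.

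Phosphoglycerate kinase makes the first ATP of the pathway. *Pgk1* was at 179, 161 and 172 FPKM in controls and at 128, 140.3 and 148 FPKM under the null label, with no overlap. Its difference was -0.30 ± 0.08 SE (95% interval -0.48 to -0.12), with an unadjusted p of 0.0054 and a limma adjusted p of 0.381. The gene lies on the X chromosome, and the summed level of 4 Y-linked genes differed among the libraries within each group. Where that sum was 111 and 112 FPKM, in control 1 and null 3, *Pgk1* was at 179 and 148 FPKM. Where it was at most 1.39 FPKM, in control 3, null 1 and null 2, *Pgk1* was at 172, 128 and 140.3 FPKM. Control 2, with *Pgk1* at 161 FPKM, had an intermediate sum of 44.2 FPKM. With 1 or 2 libraries of each kind, the part of sex in the *Pgk1* difference was not tested.

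Pyruvate kinase makes the second ATP and sets the supply of pyruvate. *Pkm* was at 657, 645 and 643 FPKM in controls and at 583, 616 and 597 FPKM in null-labelled retinas. The groups did not overlap, yet the difference was small, -0.12 ± 0.08 SE (95% interval -0.30 to 0.07, limma adjusted p = 0.73), and 15.3% of the exon sequence of *Pkm* is shared with the overlapping gene model Gm49759. *Pklr*, the liver and red cell form, was listed at no more than 0.19 FPKM in any library and was not tested.

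Lactate dehydrogenase interconverts pyruvate and lactate, with the A subunit favouring lactate. *Ldha* was the most abundant of the 10 genes, at 846, 757 and 832 FPKM in controls and at 692, 700.3 and 733 FPKM under the null label. No null value reached the lowest control, control 2, and the difference was -0.19 ± 0.09 SE (95% interval -0.40 to 0.01), with an unadjusted p of 0.0639 and a limma adjusted p of 0.64. *Ldhb* overlapped, at 72.9, 66.1 and 77.0 FPKM against 61.4, 75.2 and 75.6 FPKM (-0.03, 95% interval -0.26 to 0.20, limma adjusted p = 0.959). Null 1 held the lowest value of both subunits.

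**Figure D2:**
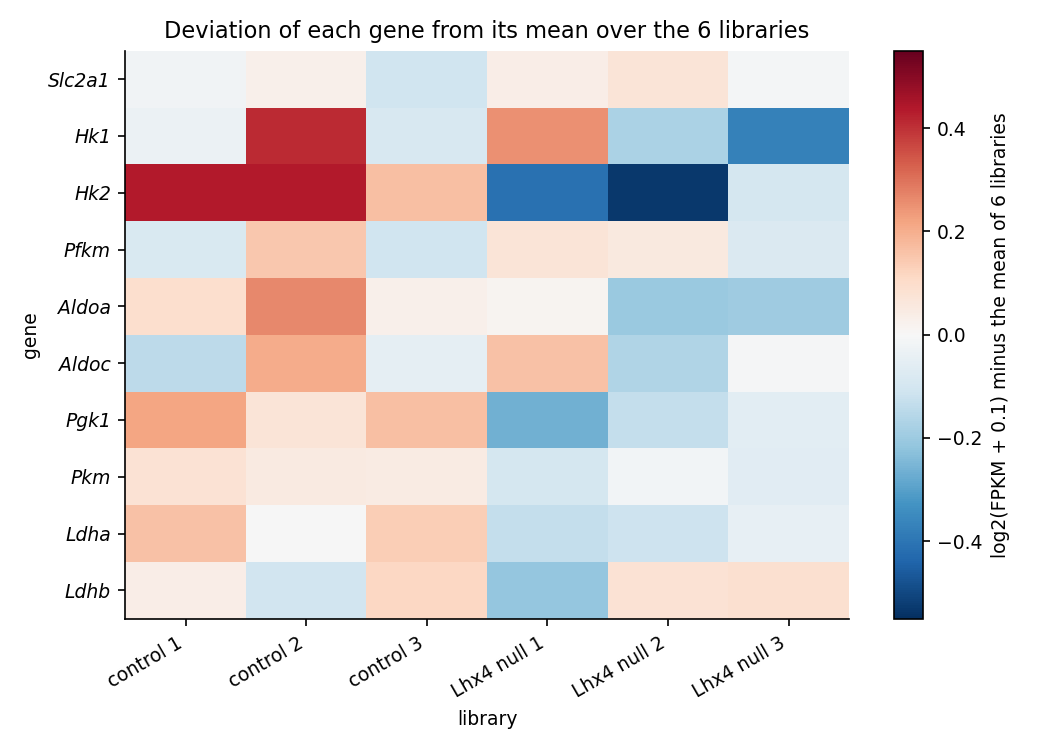
Deviation of log2(FPKM + 0.1) of each of the 10 genes (rows, in pathway order) from its mean over the 6 libraries (columns), in colour from blue (lower) to red (higher). *Hk2* runs from 0.44 in control 1 to -0.53 in null 2, and *Hk1* is high in control 2 (0.41) and null 1 (0.25) alike.

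Across the single libraries the genes did not move as 1 block. In *Hk1*, *Pfkm*, *Aldoa* and *Aldoc* control 2 was the highest control and null 1 the highest null library, and those 2 libraries also had the highest summed rod markers of their groups (6641 and 6194 FPKM). In *Pgk1*, *Ldha* and *Ldhb* the same libraries were the lowest of their groups. *Hk2* was closest to the controls in null 3.

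**Figure D3:**
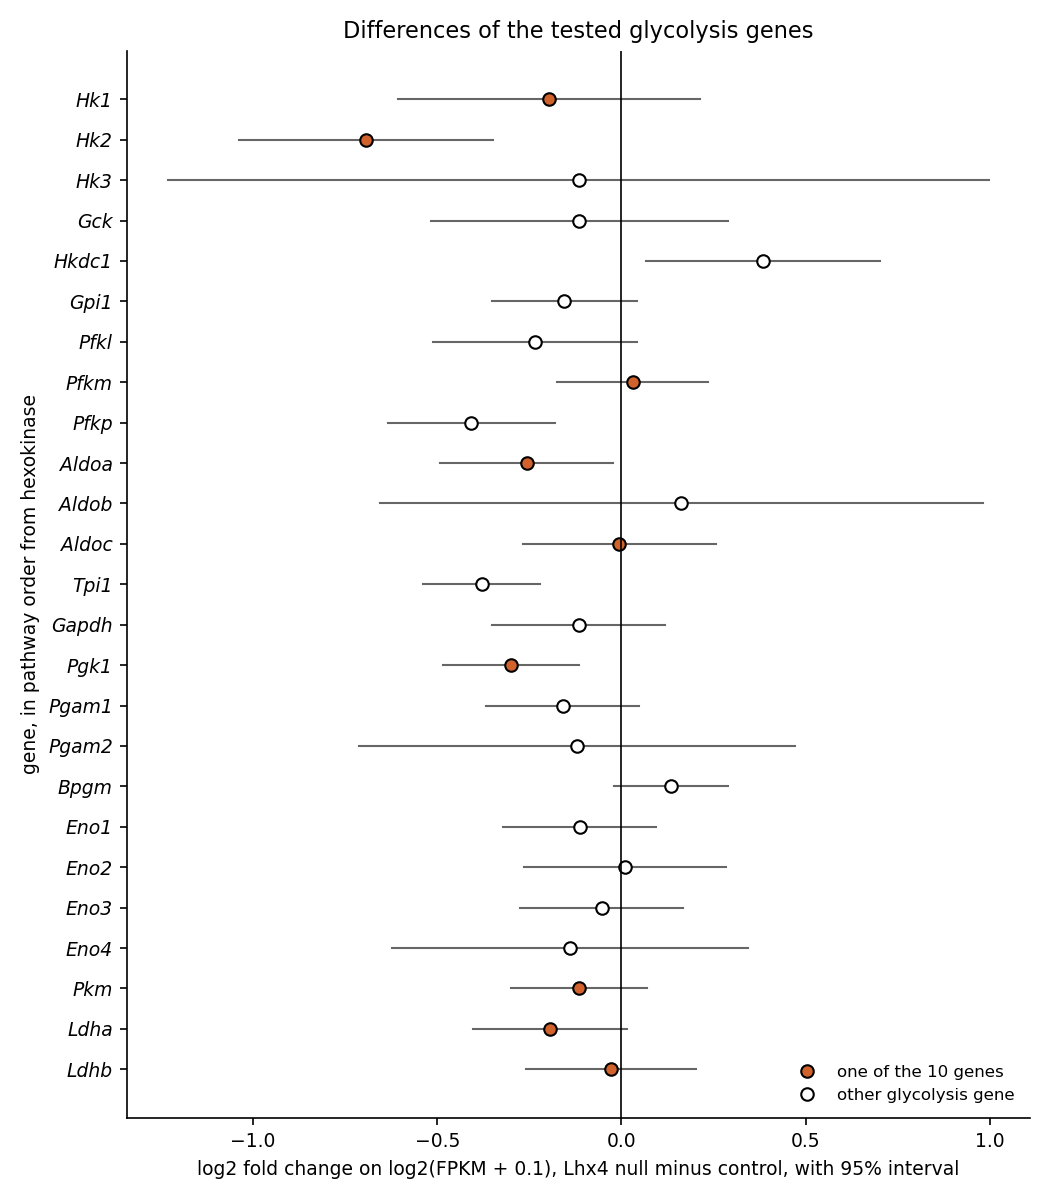
Log2 fold change (horizontal axis, null label minus control, on log2(FPKM + 0.1)) with its 95% interval for the 25 tested glycolysis genes in pathway order, filled for members. The intervals of *Hk2*, *Pfkp*, *Aldoa*, *Tpi1* and *Pgk1* lie below 0 and that of *Hkdc1* above it.

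Of 29 glycolysis genes in the table, 25 were tested and 0 passed the threshold. At an unadjusted p under 0.05, 5 were lower (*Hk2*, *Pfkp*, *Aldoa*, *Tpi1* and *Pgk1*) and 1 was higher (*Hkdc1*), where 3.55% of all genes were lower and 4.6% higher. The groups did not overlap for 8 genes in the lower and 2 in the higher direction (14.2% of all genes in either direction, 6.13% lower), 20 of the 25 differences were negative, and their median was -0.12. Without the members, 16 genes remained tested, of which 12 were lower, and the median was again -0.12. The summed FPKM of the 29 genes was 5449 ± 198 (SD, n = 3) in controls and 4869 ± 70.2 (SD, n = 3) under the null label.

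Isozyme use was compared as a ratio within each library, which any scaling of a whole library leaves as it is, in 3 pairs. *Hk2* made up 4.39, 3.27 and 3.78% of the summed FPKM of *Hk2* and *Hk1* in controls and 2.01, 2.47 and 3.82% under the null label, with overlap because of null 3 (difference of log2 ratios -0.52, two-sided exact permutation p = 0.3). *Ldha* made up 92.1, 92.0 and 91.5% of the lactate dehydrogenase FPKM in controls and 91.8, 90.3 and 90.7% under the null label, again with overlap (-0.17, exact permutation p = 0.2). That difference was -0.25 without null 1 and -0.11 without null 2. *Aldoa* made up 92.9, 92.1 and 92.2% of the summed FPKM of *Aldoa* and *Aldoc* in controls and 91.0, 91.6 and 90.7% under the null label, with no overlap (-0.25, exact permutation p = 0.1). The last p is the smallest that this permutation test can give with 3 against 3 libraries, so the test could not reach 0.05 for a ratio, and adjusted over the 3 ratios each p was 0.3.

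**Figure D4:**
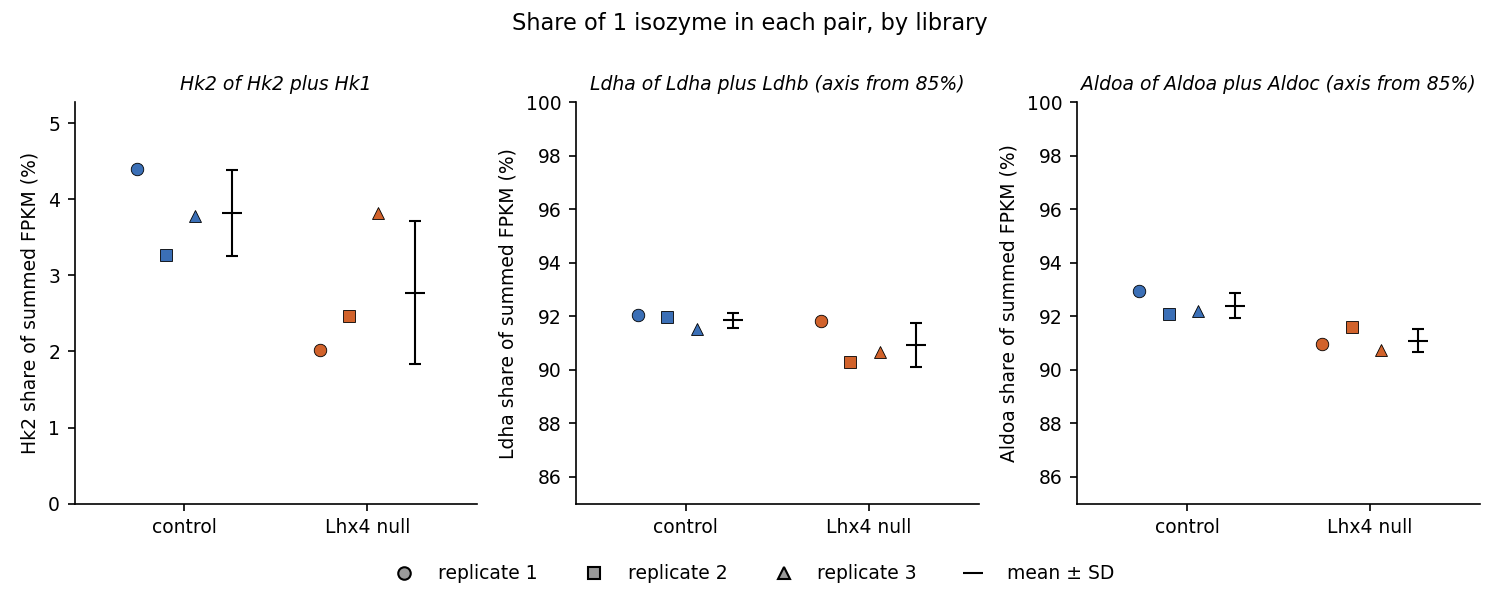
Share of *Hk2*, *Ldha* and *Aldoa* in the summed FPKM of each isozyme pair, in percent, by library, with mean ± SD, on axes that start at 0 for *Hk2* and at 85% for the others. The *Hk2* share was 3.81% ± 0.56 in controls and 2.77% ± 0.94 under the null label, and the *Aldoa* share was 92.4% ± 0.46 and 91.1% ± 0.44 (SD, n = 3).

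All 3 photoreceptor-enriched forms had null values below every control value, as had 2 of the 7 other genes (*Aldoa* and *Pgk1*) and 6.13% of all genes. The same held for 3 of the 16 tested glycolysis genes that are not members. Of the enriched forms, only *Hk2* was at an unadjusted p under 0.05. The *Pkm* value sums both of its splice forms and so cannot stand for the enriched one. The median log2 fold change was -0.19 for the 3 enriched forms and -0.03 for the 7 other members. The mean log2 level of the 3 minus that of the 7 was 0.55, 0.35 and 0.45 in the control libraries and 0.11, 0.18 and 0.35 in those labelled null, a difference of -0.24. *Hk2* contributed most to it, with -0.69 against -0.12 for *Pkm* and -0.19 for *Ldha*. Null 3 lay just above control 2, so the groups overlapped, and no test was made of this score because the genes were grouped with earlier results known.

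Lactate produced by the pathway leaves the cell with protons through the monocarboxylate transporters. *Slc16a3*, which encodes MCT4, the export form of glycolytic cells, was at 22.2, 21.7 and 19.0 FPKM in controls and at 10.6, 11.3 and 14.5 FPKM in null-labelled retinas. The null mean was 57.8% of the control mean, with a difference of -0.80 ± 0.13 SE and a limma adjusted p of 0.0676. Without null 3 the difference was -0.93 and the limma adjusted p 0.0286, which is past the threshold, with 1 library fewer in that group, and over all alternative fits the adjusted p ran from 0.0286 to 0.293. *Slc16a7*, the high-affinity MCT2, was at 1.73, 1.65 and 1.60 FPKM against 1.34, 0.842 and 1.18 FPKM (-0.55 ± 0.18 SE, limma adjusted p = 0.513). *Slc16a8*, the MCT3 of the pigment epithelium, was the 1 transporter of the list higher at an unadjusted p under 0.05, at 2.82, 3.24 and 3.43 FPKM against 2.29, 2.93 and 1.83 FPKM with overlap (0.43 ± 0.18 SE, limma adjusted p = 0.598), and the summed pigment epithelium markers were higher in the same libraries. Their part in that value was not tested. Of the 9 genes of lactate and pyruvate transport, 0 passed the threshold in limma. These 3 were at an unadjusted p under 0.05, as were 8.15% of all genes.

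Among 11 tested regulators of glycolytic flux, 0 passed the threshold. At an unadjusted p under 0.05, 2 were lower, where 3.55% of all genes were lower and 4.6% higher. *Pfkfb3*, whose product makes fructose 2,6-bisphosphate, the activator of phosphofructokinase, was at 10.2, 10.2 and 10.1 FPKM in controls and at 7.47, 6.69 and 6.99 FPKM under the null label. The controls were nearly equal and no null value came near them, with a difference of -0.53 ± 0.08 SE and a limma adjusted p of 0.0656. *Pdk1*, a kinase that inhibits pyruvate dehydrogenase, was at 12.3, 11.6 and 12.6 FPKM against 9.82, 9.51 and 11.6 FPKM, with null 3 just under control 2 (-0.24 ± 0.10 SE, limma adjusted p = 0.593).

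**Figure D5:**
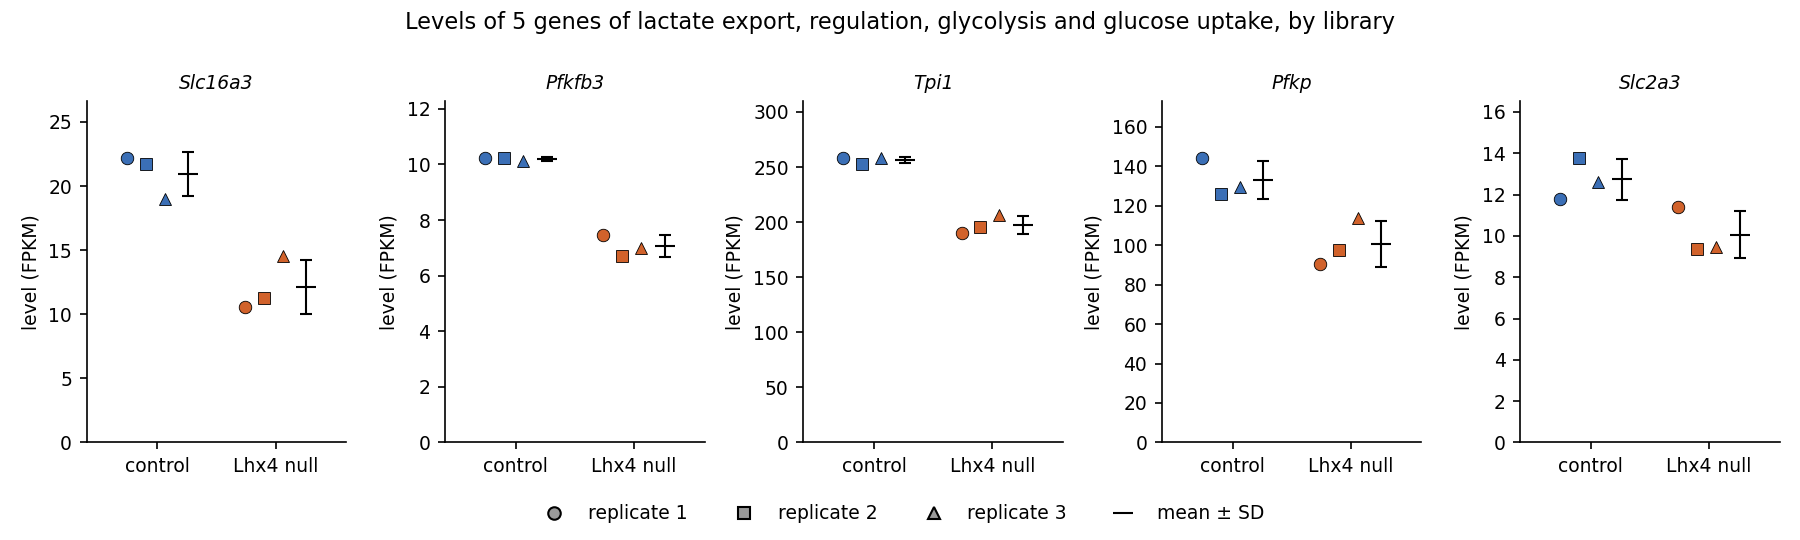
Levels in FPKM (vertical axes from 0) of *Slc16a3*, *Pfkfb3*, *Tpi1*, *Pfkp* and *Slc2a3* in the 3 control and 3 *Lhx4* null libraries, with points for libraries and bars for mean ± SD. In each panel all null points lie below all control points, and none of the 5 genes passed the threshold.

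The genes whose pattern over the 6 libraries was most like that of *Hk2*, by Pearson correlation of log2(FPKM + 0.1) among 12485 genes whose mean reached 1 FPKM, were *Gng13* (r = 0.985), *Slc16a3* (r = 0.985) and *Stc2* (r = 0.983). *Gng13*, which encodes a G protein subunit of ON bipolar cells, was at 7.14, 8.94 and 4.76 FPKM in controls and at 1.57, 1.09 and 3.73 FPKM under the null label. For *Pkm* they were *Gm10037* (r = 0.990), *Pgc* (r = 0.988) and *C330018D20Rik* (r = 0.986), and for *Ldha* they were *Ctage5* (r = 0.984), *Stard9* (r = 0.982) and *Fkbp4* (r = 0.982). These values describe 6 points that share the group difference, the library depths and the marker shifts.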

How the data were processed

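RNA of P7 retinas, freed of the pigment epithelium by dissection, was sequenced in 1 library per mouse (3 control, 3 *Lhx4* null). The authors mapped paired reads with TopHat and computed FPKM per gene with Cufflinks; the submitters' processing notes name TopHat2, Cufflinks and build GRCm38, and versions, annotation and strand are not given in the sources used here. The deposited FPKM table held 21744 genes in 6 columns, 0 of which were left unused. FPKM are not counts, so no count test was run. The table carries no absolute depth per library, and relative depth came from the steps between low values.

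Groups came from the sample labels. limma 3.58.1 in R 4.3.3 was fitted to log2(FPKM + 0.1) with a mean-variance trend for the 15200 genes whose mean reached 0.1 FPKM, with Benjamini-Hochberg adjustment. Ratios were compared by exact permutation of the 20 splits (smallest two-sided p 0.1). In simulated tables of 15200 genes the fit recovered 54% of 50 genes changed by a log2 of 0.5 and 92% of 50 changed by 1. In all, 200 genes were changed there, by a log2 of up to 4, and 10 unchanged genes were called. The simulated noise was normal and independent between libraries, without depth differences, so these shares do not give the power in the real libraries. Libraries of a group correlated at r of 0.982 to 0.992 across genes and none was a copy. Nothing beyond separate mice is stated of the replicates, so p-values measure the spread among these 6 libraries. Gene positions were taken from GENCODE vM21 and promoters from RefSeq (GRCm38.p6). The genes, gene lists and tests were chosen with earlier results of these data known. Named were all members, *Lhx4*, *Pfkl*, *Pfkp*, *Slc2a3*, per metabolic list at most 5 genes by fold change among those at an unadjusted p under 0.05 without overlap, the 3 genes most like *Hk2*, *Pkm* and *Ldha*, and markers that moved with a member. *Slc16a8*, *Bnip3*, *Adm*, *Car9*, *Pklr* and *Hif1a* were added after their values were seen. *Mxi1* was named too, beyond the limit of 5 for its list. Alternatives covered pseudocount, filter, scaling, trend, replicate block, division of the libraries and leaving out each library.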

Additional observations from a re-analysis of the deposited data

How the results depend on the processing

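No member passed the threshold in any of the 15 alternative fits, and 152 of 160 recomputed member differences kept their sign. Those that turned were of genes with small differences: *Pfkm* was at -0.033 with the division of the libraries as a term and ran from -0.015 to 0.11 when 1 library was left out (-0.0043 without control replicate 1, -0.015 without control replicate 3); *Aldoc* ran from -0.089 to 0.094 (0.094 without control replicate 2, 0.075 without null replicate 2); *Ldhb* was at 0.026 with the division as a term and ran from -0.089 to 0.069 (0.020 without control replicate 3, 0.069 without null replicate 1). The cause was not tested. *Hk2* ranged from -0.82 to -0.54 and *Pgk1* from -0.35 to -0.24, both at an unadjusted p under 0.05 in all 15 fits, whereas *Aldoa* was so in 8 (not with no filter, quantile normalization or the replicate block, nor without control 1, control 2, null 2 or null 3). The unadjusted call of *Slc16a8* held in 9 fits (0.27 without control 3) and that of *Pdk1* in 10, and *Slc16a7* was at -0.34 with a pseudocount of 1 FPKM. With the division as a term, 5 members and 12 glycolysis genes reached an unadjusted p under 0.05, against 3 and 6, while the share of all genes was 10.8% against 8.15%. Over all genes, 34 passed the threshold, 20 with no filter and 15 with the replicate block, and 15 to 31 when 1 library was left out (16 without control replicate 1, 20 without control replicate 2, 17 without control replicate 3, 17 without null replicate 2 and 15 without null replicate 3). The labels do not say whether the replicate numbers pair the libraries. Deviations of same-numbered libraries correlated at -0.127, -0.000198 and 0.162, and 3 such values cannot decide it. With the replicate block, 2 members remained at an unadjusted p under 0.05, *Hk2* had a limma adjusted p of 0.441 (0.165 to 0.677 over all fits), and the p of the *Hk2* to *Hk1* ratio was 0.5 in place of 0.3 (exact sign-flip permutation). The *Hk2* to *Hk1* difference of log2 ratios was -0.79 to -0.31 and the score difference -0.31 to -0.18 when 1 library was left out, the former -0.34 with a pseudocount of 1 FPKM. Of the low values, *Hk2* rests on the fewest reads of the 10 genes per length.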

Other observations

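Outside glycolysis, HIF-1 and its targets gave 6 lower and 3 higher genes among 18 tested at an unadjusted p under 0.05, where 3.55% of all genes were lower and 4.6% higher; the list's median was -0.15 on the log2 scale, and 0 passed the threshold. *Ankrd37*, a hypoxia-induced ankyrin repeat gene, was at 33.7, 28.1 and 33.0 FPKM in controls and at 22.2, 20.3 and 25.8 FPKM under the *Lhx4* null label (-0.47 ± 0.11 SE, limma adjusted p = 0.238). *P4ha1*, a collagen prolyl hydroxylase subunit, was at 14.7, 15.1 and 15.2 FPKM against 12.8, 9.83 and 13.2 FPKM (-0.34 ± 0.12 SE, limma adjusted p = 0.525). *Vegfa*, the angiogenic factor, was at 153, 147 and 143 FPKM against 119, 141 and 116 FPKM (-0.24 ± 0.09 SE, limma adjusted p = 0.561). Also lower were *Higd1a* (-0.21) without overlap and *Bnip3* (-0.41) and *Adm* (-0.65) with overlap. In the other direction, *Epas1*, which encodes HIF-2 alpha, was at 7.95, 8.11 and 7.41 FPKM in controls and at 8.95, 9.29 and 8.82 FPKM under the null label (0.20 ± 0.08 SE, limma adjusted p = 0.595), and *Mxi1* (0.18) and *Car9* (0.95, with overlap, under 1 FPKM) were higher too. *Hif1a* itself overlapped between the groups (-0.15, limma adjusted p = 0.681). The list thus held values on both sides of 0. Overlapping genes share 22.3% of the exon bases of *Bnip3*, 22.5% of those of *Higd1a* and 26.4% of those of *Ankrd37*.

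Pathways that branch from glycolysis were measured too. None of the 7 pentose phosphate genes was at an unadjusted p under 0.05 or without overlap, and their median was 0.02, with differences from -0.20 to 0.11. None of the 9 tested genes of gluconeogenesis and glycogen was at an unadjusted p under 0.05 either, where 8.15% of all genes were.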
